A study of Mus musculus with 8 samples.

Results

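The genes described here build and mark the small blood vessels of skeletal muscle: capillary endothelial cells, the pericytes wrapped around them, the angiogenic ligands and receptors that link muscle fibres to vessels, and the hypoxia factors upstream of those ligands. They were chosen by name, as a list of 35 genes, and all 35 were found among the 43239 distinct gene names of the files. Of these, 34 had a mean of at least 1 FPKM (a gene's sequenced fragments, scaled to transcript length and to library size) over the 8 libraries and were tested with 11878 genes in all. Angpt2 fell below that level. RNA came from quadriceps muscle of female mice aged 6 months, 1 library per mouse, 4 labelled wild type (WT) and 4 labelled Mss51-/- (KO), and no other treatment or allele is named in the labels. The labels say neither how the Mss51 allele was made nor on which strain, and they give no cell type or tissue limit for it. The study asks, by its title, about Mss51 in the metabolism of muscle and of glucose.

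Mss51 itself goes against the labels, with a mean of 28.0 ± 6.28 FPKM in the WT-labelled libraries and 241 ± 66.1 FPKM in the KO-labelled ones (SD, n = 4), so every direction below is that of the labels. Throughout, values in a row are those of replicates 1 to 4, and a number alone in parentheses after them is the log2 fold change, KO minus WT. As a check of the tissue, the muscle creatine kinase gene Ckm was between 9230.4 and 12716 FPKM in every library, and the fast myosin gene Myh4 was listed at 0 in all 8. Tnnt3, the fast troponin T gene, was listed at 0 in 4 libraries (WT replicates 2 and 4, KO replicates 1 and 3) and between 7955 and 8888 FPKM in the others, a split that the labels do not explain. An exact 0 beside such high values in other libraries can be a failed estimate, and the tables carry no status for it, so these zeros are no measure of the tissue or its fibres. Haemoglobin and other erythroid transcripts summed to 509, 576, 1334 and 1107 FPKM under the WT label and 3171, 1598, 1529 and 652 FPKM under the KO label, highest in KO replicate 1. The files hold no counts, and the depth of each library is given only as the target of 50 M read pairs stated in the labels.

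As background, endothelial cells of muscle capillaries are held together by VE-cadherin and PECAM-1 and owe their identity to transcription factors of the ETS and SOX families. Muscle fibres release VEGF-A, which acts through the receptor encoded by Kdr, while the receptor encoded by Flt1 binds VEGF-A tightly and also takes up VEGF-B. Angiopoietin 1 from perivascular cells activates the receptor TIE2, encoded by Tek, and angiopoietin 2 can counter it. Pericytes depend on PDGF receptor beta and NOTCH3. When oxygen is short, the alpha subunits encoded by Hif1a and Epas1 escape degradation and pair with ARNT to raise VEGF-A and other targets, so their transcripts need not change. In muscle, oxidative fibres, rich in myoglobin, are supplied by more capillaries than glycolytic ones.

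None of the 34 tested vascular genes differed between the labelled genotypes past the threshold (limma, Benjamini-Hochberg adjusted p under 0.05 over all tested genes), where 0.0505% of all tested genes passed, and no other tool was run. At an unadjusted p under 0.05 stood 1 vascular gene, Vegfb, against 10.3% of all tested genes. Positive log2 fold changes, KO minus WT, were found for 25 of the 34, against 54.4% of all tested genes. Their median was 0.13 beside 0.019 for all tested genes, and it was -0.07 beside -0.18 after each library was scaled to the same total over its named genes (TPM), so that its sign rests on the scaling. The distance from all tested genes rests on single libraries. Without KO replicate 2 the vascular median was 0.011 beside 0.013 for all tested genes, with 18 of 34 above 0, and without KO replicate 1 it was 0.25 beside 0.028, with 29 of 34. Single values ran from -0.20 for Plvap to 0.45 for Gpihbp1, and adjusted p from 0.353 to 0.989.

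**Figure D1:**
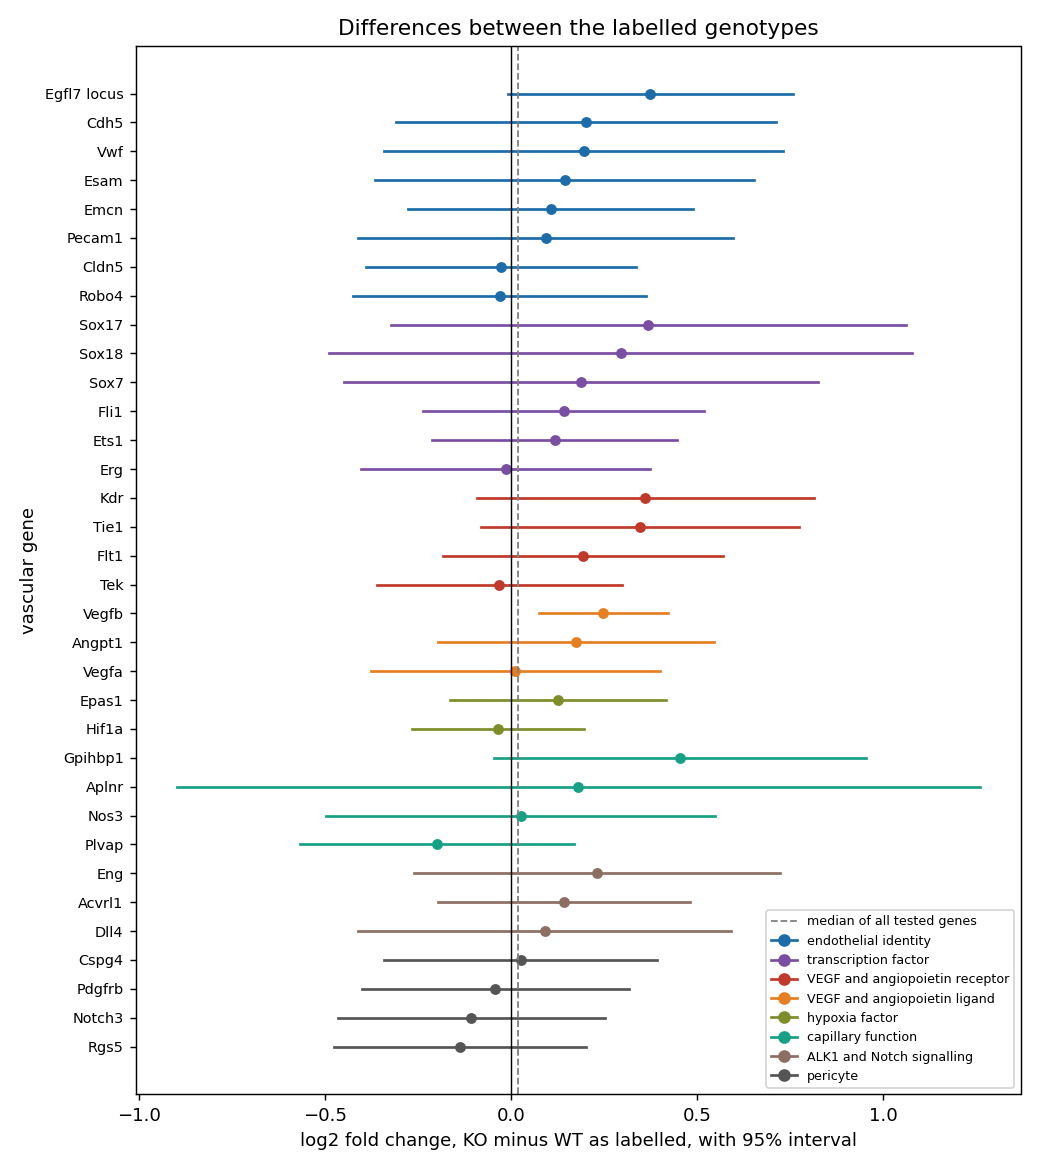
Log2 fold change (KO minus WT as labelled, on the log2(FPKM + 0.5) scale, x axis) with its 95% interval for the 34 tested vascular genes (y axis), coloured by role; the dashed line marks the median of all tested genes. Only the interval of Vegfb lies wholly above 0, and Gpihbp1 has the highest point (0.45).

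The intervals were wide for most genes. For Pecam1 the 95% interval of the log2 fold change ran from -0.41 to 0.60, around an SE of 0.222. The median SD within a group was 0.271 log2 units over the vascular genes and 0.177 over all tested genes. Libraries of 1 label thus differed more in vascular RNA than in the typical tested gene. In whole muscle, fewer cells of a type and less RNA per cell cannot be told apart.

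Among the genes of endothelial identity, Pecam1 (ENSMUSG00000020717, chr11:106654217-106750628 of mm10), which encodes the junction molecule CD31, stood at 21.8, 21.1, 28.6 and 23.0 FPKM in the WT-labelled libraries and 17.2, 37.2, 21.0 and 29.2 FPKM in the KO-labelled ones (23.6 ± 3.40 against 26.1 ± 8.90 FPKM, SD, n = 4; log2 fold change 0.093, 95% interval -0.41 to 0.60, limma adjusted p = 0.918). Both the highest and the lowest library carried the KO label, and the groups overlap. Cdh5 (chr8:104101625-104144511), the gene of VE-cadherin at endothelial junctions, stood at 18.7, 17.1, 26.0 and 19.1 FPKM in the WT-labelled libraries and 15.5, 33.0, 20.4 and 27.0 FPKM in the KO-labelled ones (20.2 ± 3.95 against 24.0 ± 7.62 FPKM; log2 fold change 0.20, 95% interval -0.31 to 0.71, limma adjusted p = 0.804). KO replicate 2 was again highest and KO replicate 1 lowest. Vwf, which encodes the von Willebrand clotting factor stored in endothelial cells, stood at 11.2, 11.5, 16.7 and 9.85 FPKM under the WT label and 10.1, 18.4, 10.8 and 18.4 FPKM under the KO label (log2 fold change 0.19). Cldn5, a claudin of tight junctions, stood at 19.1, 17.8, 15.4 and 16.7 FPKM under the WT label and 16.6, 23.4, 13.0 and 16 FPKM under the KO label (-0.027). KO replicate 2 was above and KO replicate 3 below all other libraries. Egfl7, a factor secreted by endothelial cells, shares 1 entry with Fam69b and Gm20532 in the files (Egfl7 itself lies at chr2:26580014-26593120), so its value belongs to the joined locus. That locus stood at 36.6, 34.3, 46.5 and 43.4 FPKM under the WT label and 46.2, 70.3, 41.0 and 54.3 FPKM under the KO label (log2 fold change 0.37, 95% interval -0.0088 to 0.76, limma adjusted p = 0.499), and 2 of the 4 KO-labelled libraries lay within the range of the WT-labelled ones. The other identity genes were the sialomucin Emcn (0.11), the adhesion molecule Esam (0.14) and the guidance receptor Robo4 (-0.031), with overlapping groups.

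The ETS and SOX transcription factors, which switch on endothelial genes, spread widely within each label. Erg, an ETS factor, stood at 4.08, 4.52, 5.58 and 4.25 FPKM under the WT label and 3.19, 5.91, 4.76 and 4.63 FPKM under the KO label (-0.015). Ets1, another ETS factor, stood at 5.98, 6.10, 6.95 and 6.29 FPKM under the WT label and 5.60, 8.83, 5.79 and 7.87 FPKM under the KO label (0.12), and Fli1, also of this family, had a log2 fold change of 0.14. None of these ETS factors separated the labels. Sox17, of arterial endothelium, stood at 2.90, 5.40, 9.22 and 6.14 FPKM under the WT label and 5.52, 9.33, 6.01 and 8.89 FPKM under the KO label (log2 fold change 0.37, 95% interval -0.32 to 1.06, limma adjusted p = 0.727). Sox18, which takes part in vessel and lymphatic development, stood at 10.7, 9.12, 28.0 and 16.2 FPKM under the WT label and 11.9, 24.2, 16.8 and 21.6 FPKM under the KO label (0.29). Its highest library carried the WT label, replicate 3, at 28.0 FPKM, and so did its lowest, replicate 2. Sox7, the member that shares chromosome 14 with Mss51 (chr14:63943673-63950732), stood at 2.42, 2.34, 4.95 and 3.16 FPKM under the WT label and 3.0, 6.25, 2.77 and 3.10 FPKM under the KO label (0.19), with KO replicate 2 far above the other KO-labelled libraries.

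**Figure D2:**
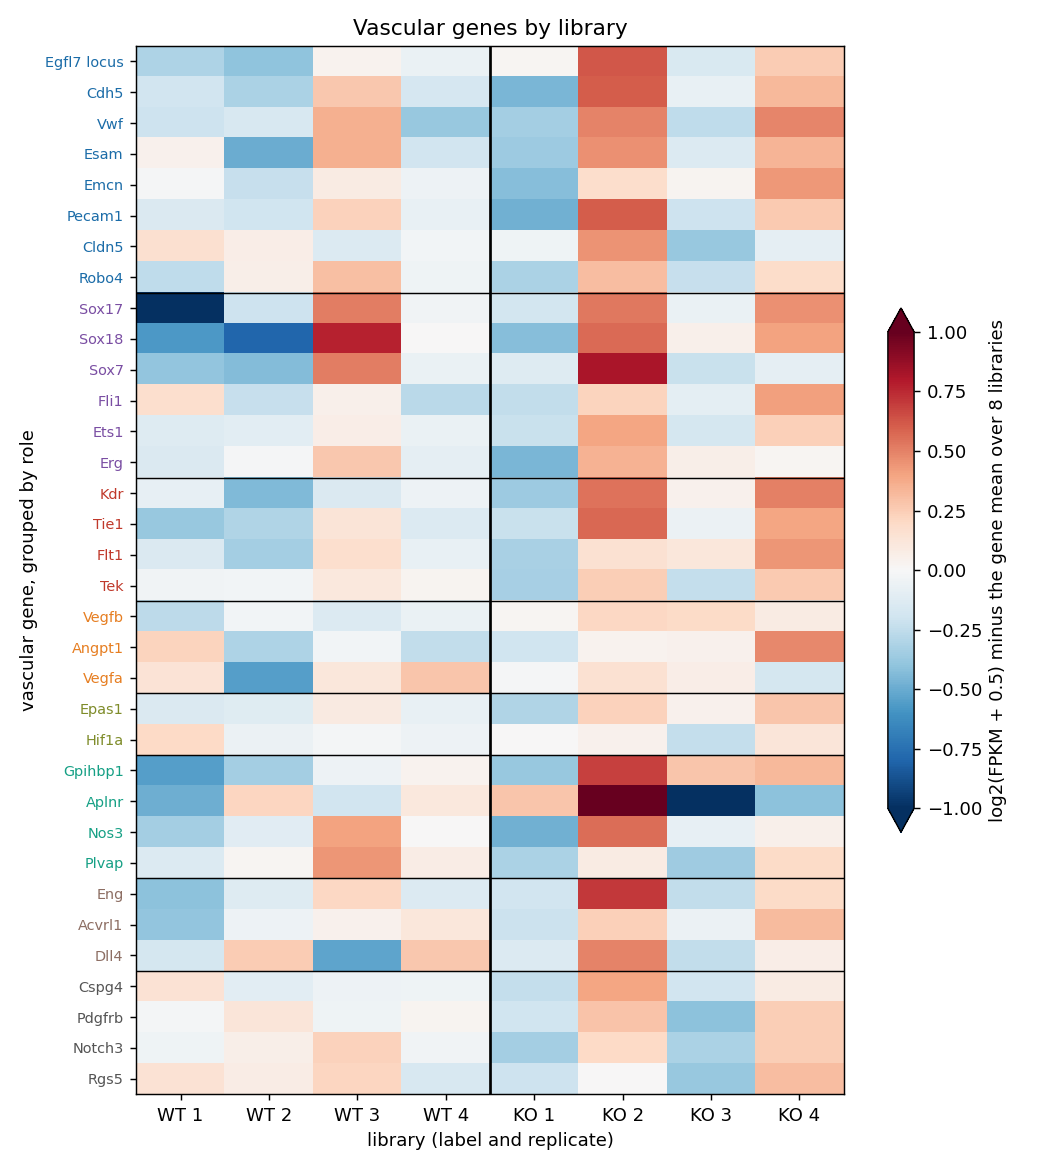
Each row is 1 of the 34 tested vascular genes, grouped from top to bottom as endothelial identity, transcription factors, receptors, ligands, hypoxia factors, capillary function, ALK1 and Notch signalling, and pericytes; each column is a library. Colour gives log2(FPKM + 0.5) minus the gene's mean over the 8 libraries (red higher, blue lower, ends of the scale at 1 log2 unit). The columns of KO replicates 2 and 4 and WT replicate 3 are mostly red. Those of KO replicates 1 and 3, of WT replicates 1 and 2 and, more weakly, of WT replicate 4 are mostly blue.

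Receptors for VEGF and angiopoietins came next. Kdr (ENSMUSG00000062960, chr5:75932827-75978458), the main signalling receptor for VEGF-A, stood at 8.67, 6.68, 8.28 and 8.87 FPKM in the WT-labelled libraries and 7.06, 13.6, 9.50 and 13.3 FPKM in the KO-labelled ones (8.13 ± 0.995 against 10.9 ± 3.16 FPKM; log2 fold change 0.36, 95% interval -0.093 to 0.81, limma adjusted p = 0.579). In KO replicates 2, 3 and 4 it was above every WT-labelled library, and in KO replicate 1 within their range. Flt1, the receptor that binds VEGF-A and VEGF-B, stood at 13.0, 11.3, 16.2 and 13.7 FPKM under the WT label and 11.4, 16.1, 15.7 and 19.8 FPKM under the KO label (0.19). Tek, the gene of TIE2, stood at 8.55, 8.58, 9.45 and 8.94 FPKM under the WT label and 6.85, 10.5, 7.37 and 10.6 FPKM under the KO label (-0.032). For Tek the WT-labelled libraries lay within 1 FPKM of each other, while 2 KO-labelled libraries were above and 2 below them. Tie1, an orphan partner of TIE2, stood at 9.81, 10.4, 14.1 and 11.7 FPKM under the WT label and 11, 19.5, 12.4 and 17.2 FPKM under the KO label (log2 fold change 0.35, 95% interval -0.081 to 0.77, limma adjusted p = 0.566).

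Endothelial genes commonly carry ETS sites, and the stretches that hold ETS letters are shown here for all 7 genes with a promoter at hand, such letters in it and a correlation with Pecam1 (described further on) of at least 0.793. RefSeq promoters (build GRCm38.p6) were matched by symbol for 17 of the 35 members, with 22 start sites. The 250 bases before each start were searched on both strands for the ETS letters CAGGAA or CCGGAA, and matches on opposite strands can overlap. Windows of 30 bases, read along the gene's strand, have every match in capitals (TTCCTG and TTCCGG are the same letters on the other strand).
Tek, chr4:94739188-94739217, plus strand: cttgttattcaaTTCCTGgcctatgagagg
Tek, chr4:94739218-94739247, plus strand: atacccctattgTTCCTGaaaatgctgacc
Tie1, chr4:118490041-118490070, minus strand: ggcttcctccctTTCCTGtctcccgtgctc
Kdr, chr5:75978591-75978620, minus strand: cgcccggcacagTTCCGGggtagtggggga
Robo4, chr9:37401910-37401939, plus strand: atgagggccaggCAGGAAgcatccgtttcc
Emcn, chr3:137340893-137340922, plus strand: aagaagggtctcTTCCTGttcaaatcccat
Emcn, chr3:137340999-137341028, plus strand: aaaaaaaagaagTTCCTGtaaggggctgaa
Erg, chr16:95459370-95459399, minus strand: aatagaaacctcTTCCTGccattggctgac
Cspg4, chr9:56864883-56864912, plus strand: ggtctgccttggCAGGAAaggtccttcaat
The ETS letters were in 11 of the 22 member promoters, and in 35.1% of all 32851 promoters of that table. By the gene positions used here, the Erg window lies inside its gene (chr16:95359169-95586593), before 1 of its 3 start sites. That of Robo4 also lies inside its gene (chr9:37401897-37415115), and that of Tie1 does in part (chr4:118471191-118490061). A match is a run of letters and not a tested site. The cutoff in r was set after the values were seen, and Egfl7, Rgs5 and Vegfa, with a lower r, also held the letters. Notch3, with r = 0.830, had a promoter at hand that did not hold them. Whether the letters go with r was not tested.

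Of the ligands, Vegfb was the 1 vascular gene whose groups did not overlap. Vegfb (ENSMUSG00000024962, chr19:6982473-6987651), whose product binds the Flt1 receptor, stood at 100.1, 118, 109 and 115 FPKM in the WT-labelled libraries and 122, 139, 137 and 127 FPKM in the KO-labelled ones (111 ± 7.85 against 131 ± 8.01 FPKM, SD, n = 4). The lowest KO-labelled library, replicate 1, was above the highest WT-labelled one, replicate 2, by a narrow margin. The log2 fold change was 0.25 (95% interval 0.076 to 0.42, SE 0.0760; exact permutation p = 0.0286, two-sided, the smallest that 70 assignments allow; limma unadjusted p = 0.00998, adjusted p = 0.353). It did not pass over all tested genes, where 5.5% had groups that do not overlap in either direction and 3.89% had all KO-labelled libraries above all WT-labelled ones. After rescaling to TPM the log2 fold change of Vegfb was 0.035, where the median of all tested genes moved from 0.019 to -0.18. Leaving out 1 library at a time gave 0.20 to 0.28.

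Vegfa, the ligand released by hypoxic or contracting muscle, stood at 55.1, 34.0, 54.2 and 60.7 FPKM in the WT-labelled libraries and 49.7, 55.5, 52.3 and 44.2 FPKM in the KO-labelled ones (51.0 ± 11.7 against 50.4 ± 4.79 FPKM; log2 fold change 0.011, 95% interval -0.38 to 0.40, limma adjusted p = 0.989). Its widest departure was WT replicate 2, the lowest of all 8, and the KO-labelled libraries lay inside the WT-labelled range. Angpt1, the activating ligand of TIE2, stood at 11.2, 7.62, 9.37 and 7.97 FPKM under the WT label and 8.23, 9.76, 9.82 and 13.5 FPKM under the KO label (0.17). Angpt2, the antagonist linked to vessel remodelling, was the scarce member at 0.717, 0.612, 0.771 and 0.838 FPKM under the WT label and 0.650, 0.817, 0.902 and 0.702 FPKM under the KO label, and tested with a lower filter (mean of at least 0.1 FPKM) it had a log2 fold change of 0.037 (limma adjusted p = 0.946). A list of 8 further genes of the VEGF axis, among them Nrp1, Pgf and Vegfc, had 0 past the threshold, with 7 above 0 and 1 below (median 0.064). Nrp1, a co-receptor of VEGF, was at 14.6 ± 0.968 against 17.7 ± 3.31 FPKM (log2 fold change 0.25, limma adjusted p = 0.538).

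The hypoxia factors themselves were close between the labels. Hif1a stood at 10.1, 8.35, 8.60 and 8.38 FPKM in the WT-labelled libraries and 8.73, 9.01, 7.30 and 9.55 FPKM in the KO-labelled ones (8.86 ± 0.843 against 8.65 ± 0.959 FPKM; log2 fold change -0.035, 95% interval -0.27 to 0.20, limma adjusted p = 0.934). Its 95% interval is among the narrowest of the set, and the highest library was WT replicate 1. Epas1, the alpha subunit prominent in endothelium, stood at 33.8, 34.3, 39.9 and 35.6 FPKM in the WT-labelled libraries and 30.3, 44.1, 38.6 and 45.4 FPKM in the KO-labelled ones (35.9 ± 2.74 against 39.6 ± 6.89 FPKM; log2 fold change 0.13, 95% interval -0.17 to 0.42, limma adjusted p = 0.782). The KO-labelled libraries were above the WT-labelled range in replicates 2 and 4, below it in replicate 1 and inside it in replicate 3. The hypoxia response letters ACGTG or GCGTG, searched in the same way on both strands (the palindrome CACGTG is met on each strand), were in 9 of the 22 member promoters (40.9%) and in 38.6% of all promoters, and are shown for Vegfa, Vegfb and Hif1a, the 3 members with the lowest correlation with Pecam1.
Vegfb, chr19:6987715-6987744, minus strand: ccggtggggagcGCGTGtttaggtcacatg
Vegfb, chr19:6987871-6987900, minus strand: ggtccttcaggtCACGCatctcctcacccc
Vegfa, chr17:46025364-46025393, minus strand: aagccctggagtGCGTGccCACGTcagaga
Hif1a, chr12:73907720-73907749, plus strand: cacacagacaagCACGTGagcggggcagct
Hif1a, chr12:73907785-73907814, plus strand: tggctgagagcaACGTGggctggggtgggg
The Vegfa window lies before 1 of its 2 start sites, inside the gene (chr17:46016993-46032369), and the other start had no match. The Hif1a windows likewise lie inside that gene (chr12:73901375-73947530). These letters were about as common in the members' promoters as in all promoters, and they say nothing of binding.

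Among 7 regulators of the hypoxia factors, 6 were tested and 0 passed the threshold, with 3 above and 3 below 0. Egln3, the prolyl hydroxylase that tags the alpha subunits and is itself hypoxia-inducible, stood at 25.5, 16, 27.5 and 17.7 FPKM in the WT-labelled libraries and 15.3, 85.6, 59.3 and 73.1 FPKM in the KO-labelled ones (log2 fold change 1.19, limma adjusted p = 0.453). In KO replicates 2 to 4 it was at more than any WT-labelled library, and in KO replicate 1 it was the lowest of all 8. Arnt, the shared partner of the alpha subunits, stood at 15.2, 14.8, 14.6 and 15.0 FPKM in the WT-labelled libraries and 13.7, 13.2, 13.0 and 13.5 FPKM in the KO-labelled ones (log2 fold change -0.16, limma adjusted p = 0.424). Its groups did not overlap, as was the case for 5.5% of all tested genes. Hif1an, the asparagine hydroxylase that restrains the alpha subunits, stood at 49.5, 48.3, 42.5 and 45.8 FPKM under the WT label and 43.7, 36.8, 41.2 and 39.4 FPKM under the KO label (log2 fold change -0.21, limma adjusted p = 0.424). Of 12 hypoxia target genes 11 were tested, with 6 above and 5 below 0, 0 past the threshold and a median of 0.016. The mitophagy receptor Bnip3 was at 201 ± 14.3 against 245 ± 34.3 FPKM (log2 fold change 0.27, limma adjusted p = 0.440) and the glucose transporter Slc2a1 at 7.09 ± 1.08 against 6.44 ± 1.36 FPKM (log2 fold change -0.13, limma adjusted p = 0.809).

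Genes of capillary function ran from the highest to the lowest fold change of the set. Gpihbp1 (chr15:75596628-75599481), which carries lipoprotein lipase to the capillary lumen, stood at 28.7, 33.3, 40.8 and 43.2 FPKM in the WT-labelled libraries and 32.3, 68.3, 51.4 and 53.2 FPKM in the KO-labelled ones (36.5 ± 6.71 against 51.3 ± 14.7 FPKM; log2 fold change 0.45, 95% interval -0.045 to 0.95, limma adjusted p = 0.529). KO replicates 2 to 4 were above every WT-labelled library, and KO replicate 1 was not. Nos3, the endothelial nitric oxide synthase, stood at 3.08, 3.70, 5.50 and 4.05 FPKM under the WT label and 2.76, 6.18, 3.80 and 4.21 FPKM under the KO label (0.026). Plvap, a component of the diaphragms of fenestrae and caveolae, stood at 14.0, 15.7, 21.2 and 16.3 FPKM under the WT label and 12.4, 16.4, 12.0 and 17.7 FPKM under the KO label and had the lowest log2 fold change of the set (log2 fold change -0.20, 95% interval -0.57 to 0.17, limma adjusted p = 0.727). Aplnr, the apelin receptor, stood at 2.24, 3.96, 2.87 and 3.63 FPKM under the WT label and 4.16, 10.5, 1.39 and 2.39 FPKM under the KO label (0.18). KO replicate 2 was the highest by far, and without that library the fold change was -0.30.

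In the ALK1 and Notch branches, which restrain sprouting and set arterial fate, Acvrl1, the gene of the BMP receptor ALK1, stood at 8.09, 10.4, 11.1 and 11.7 FPKM under the WT label and 9.23, 12.8, 10.3 and 13.6 FPKM under the KO label (0.14), and its co-receptor Eng stood at 14.8, 18.0, 22.9 and 18.0 FPKM under the WT label and 17.2, 32.7, 16.6 and 22.6 FPKM under the KO label (0.23). Dll4, the Notch ligand of tip and arterial cells, stood at 3.13, 4.40, 2.36 and 4.46 FPKM under the WT label and 3.24, 5.30, 2.97 and 3.81 FPKM under the KO label (0.090). Groups overlapped for all 3. Of 9 other vascular Notch genes 8 were tested, and 0 passed (3 above and 5 below 0, median -0.032). The target gene Hey1 was at 3.04 ± 0.616 against 4.05 ± 1.11 FPKM (log2 fold change 0.34, limma adjusted p = 0.621).

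Pericyte genes were the 1 role with more values below than above 0, 3 of 4, with a median of -0.074 and 0 past the threshold. Rgs5, a regulator of G protein signalling abundant in pericytes, stood at 108, 103, 114 and 87.6 FPKM under the WT label and 84.6, 98.2, 75.2 and 122 FPKM under the KO label (-0.14). Pdgfrb, the receptor that recruits pericytes, stood at 6.22, 6.92, 6.11 and 6.45 FPKM under the WT label and 5.43, 7.81, 4.62 and 7.59 FPKM under the KO label (-0.042). For Pdgfrb the WT-labelled libraries were close together, and KO replicates 1 and 3 lay below them and KO replicates 2 and 4 above them. Notch3, which maintains mural cells, stood at 4.27, 4.62, 5.28 and 4.30 FPKM under the WT label and 3.39, 5.13, 3.44 and 5.33 FPKM under the KO label (-0.11), and Cspg4, the gene of the proteoglycan NG2, at 2.29, 1.84, 1.94 and 1.95 FPKM under the WT label and 1.64, 2.81, 1.71 and 2.18 FPKM under the KO label (0.026). A list of 9 further pericyte genes such as Kcnj8 and Higd1b had 5 above and 4 below 0 with 0 past the threshold (median 0.029). Of 5 smooth muscle genes 4 were tested and all 4 were below 0, none past the threshold, as for the actin gene Acta2 (30.4 ± 5.57 against 23.4 ± 2.40 FPKM; log2 fold change -0.35, limma adjusted p = 0.424).

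The pattern shared by most of these genes separated single libraries within each label. KO replicate 2 held the highest value for 21 of the 34 genes (61.8%, against 18.1% of all tested genes), and KO replicate 4 for 9 (26.5%, against 18.1%). Among the KO-labelled libraries, replicate 1 or 3 was lowest for 33 of 34 genes (97.1%, against 61.3% of all tested genes). Among the WT-labelled libraries, replicate 3 was highest for 21 of 34 (61.8%, against 28.6%). These counts were chosen after the values were seen and are a description. The median departure from each gene's mean, in log2 units, over the 8 identity genes was -0.17, -0.21, 0.25 and -0.072 in the WT-labelled libraries and -0.35, 0.47, -0.18 and 0.30 in the KO-labelled ones. Over the 4 pericyte genes it was 0.062, 0.067, 0.084 and -0.037 and -0.22, 0.24, -0.35 and 0.25, with KO replicates 2 and 4 again above and KO replicates 1 and 3 below. Over the 3 tested ligands it was 0.14, -0.30, -0.023 and -0.069 and -0.011, 0.15, 0.063 and 0.080, a different order.

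How closely each gene followed Pecam1 over the 8 libraries was measured by correlation of log2(FPKM + 0.5), a comparison chosen after the values were seen, and the points share each library's scaling and dissection. Of the 33 other vascular genes, 14 had a Pearson r of at least 0.8 (42.4%), against 4.65% of the 11877 other tested genes. With each labelled genotype centred on its own mean the numbers were 17 of 33 and 7.11%, and after scaling to TPM they were 26 of 33 and 18.5%. The TPM scaling raised r in general, however. The median r with Pecam1 over all other tested genes was 0.70 after it and 0.16 before, so the higher count is not particular to the vascular genes. Cdh5 had r = 0.974 (exact permutation p = 0.000595, adjusted p = 0.102), with Spearman's rho = 0.857 (p = 0.0107 by exact permutation, adjusted p = 0.277). Ets1 had r = 0.966 (exact permutation p = 7.4e-05, adjusted p = 0.0552) and rho = 0.976 (p = 0.000397 by exact permutation, adjusted p = 0.163). Tek had r = 0.907 (exact permutation p = 0.00102, adjusted p = 0.130) and rho = 0.952 (p = 0.00114 by exact permutation, adjusted p = 0.205). No single gene passed after adjustment over the 11877 genes, vascular or other (0%), and 22 of the 33 vascular genes had an unadjusted exact p under 0.05, against 14.1% of all.

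Of the 33 genes, 7 had an r under 0.5: the ligands Vegfa, Vegfb and Angpt1 (0.437), Hif1a, Dll4 (0.334), Aplnr (0.479) and Cldn5 (0.480). Vegfa had r = 0.207 (exact permutation p = 0.616, adjusted p = 0.846) and rho = 0.381 (p = 0.360 by exact permutation, adjusted p = 0.703), Vegfb had r = 0.300 (exact permutation p = 0.470, adjusted p = 0.770) and rho = 0.143 (p = 0.752 by exact permutation, adjusted p = 0.916), and Hif1a had r = 0.278 (exact permutation p = 0.508, adjusted p = 0.793) and rho = 0.452 (p = 0.267 by exact permutation, adjusted p = 0.637). Epas1, by contrast, had r = 0.888 (exact permutation p = 0.00392, adjusted p = 0.205) and rho = 0.810 (p = 0.0218 by exact permutation, adjusted p = 0.326). Without KO replicates 2 and 4, the 2 libraries farthest from the median Pecam1, r was 0.926 for Cdh5, 0.958 for Ets1, 0.877 for Tek and 0.828 for Epas1. It was 0.270 for Vegfa, -0.414 for Vegfb and 0.0289 for Hif1a. For Kdr it fell to 0.385 from 0.803, and for Gpihbp1 to 0.320 from 0.757, so these relations rest on those libraries. Then 10 of 33 vascular genes had an r of at least 0.8, against 6.29% of the other genes.

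**Figure D3:**
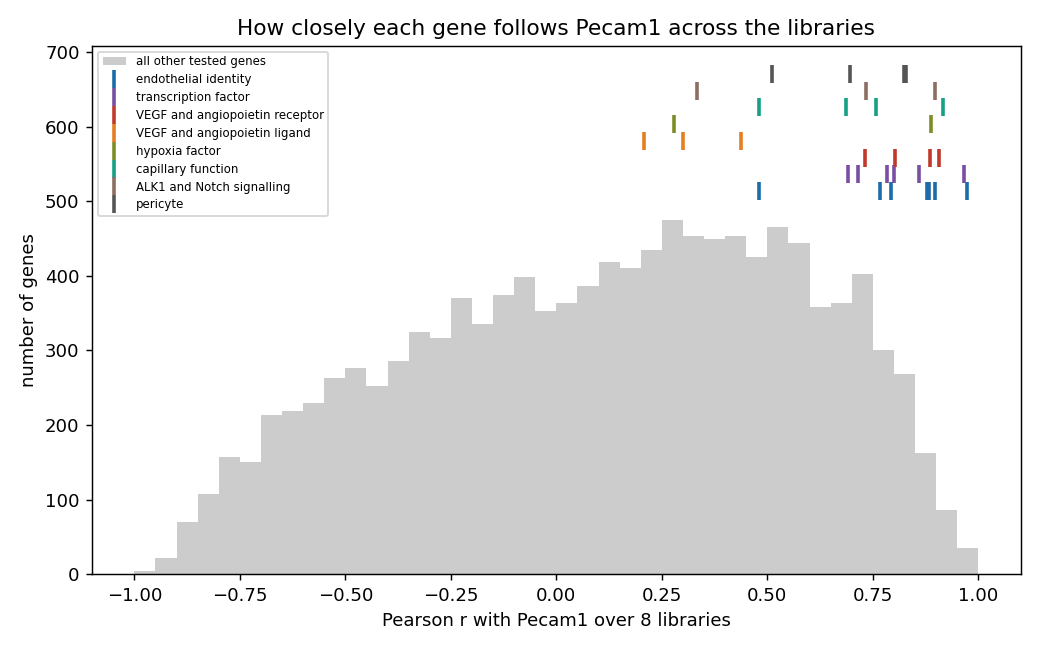
Histogram of Pearson r with Pecam1 over the 8 libraries for all other tested genes (x axis r, y axis number of genes), with the 33 other vascular genes as coloured ticks by role above the bars. The ticks of identity genes, transcription factors and receptors lie at 0.691 or above, apart from Cldn5 at 0.480, and those of the ligands at 0.207 to 0.437.

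Lists for other vessel and tissue cells were summed beside the vascular genes. A list of 20 further endothelial genes, 19 of them tested, with 11 above and 8 below 0 and 0 past the threshold (median 0.071), summed to 992, 1069, 1303 and 1304 FPKM in the WT-labelled libraries and 1037, 1504, 1074 and 1248 FPKM in the KO-labelled ones. Fabp4 was the largest part of that sum, at 321, 360, 444 and 517 FPKM and 390, 601, 397 and 390 FPKM. Gene by gene, the list's median departure from each gene's mean was -0.31, -0.048, 0.19 and 0.066 log2 units under the WT label. Under the KO label it was -0.24, 0.36, -0.082 and 0.18, so KO replicate 4 ranked higher than in the sum. The gene of this list with the smallest p was Ecscr, a regulator of endothelial migration, at 5.90 ± 0.730 against 8.36 ± 1.49 FPKM (log2 fold change 0.46, limma adjusted p = 0.353). The 5 macrophage markers, all of them tested, summed to 76.6, 75.7, 95.7 and 87.0 FPKM and 88.9, 100.1, 69.4 and 109 FPKM, lowest in KO replicate 3 and highest in KO replicate 4. The 6 fibroblast markers summed to 1539, 1557, 1650.2 and 1713 FPKM and 1382, 1426, 1138 and 1651 FPKM, again lowest in KO replicate 3. No marker of either list was at 0 in all libraries, and the part of other cell types in the vascular values was not tested. In the 4 libraries with Tnnt3 above 0 (2 per label) the vascular median log2 fold change was 0.29, with 30 of 34 above 0 (all tested genes 0.048, 58.5% above 0). In the 4 with Tnnt3 listed at 0 it was -0.062, with 12 of 34 above 0 (all tested genes -0.0060, 48.4%). Pecam1 had 0.39 and -0.21 in these sets, Kdr 0.64 and 0.084, Gpihbp1 0.81 and 0.10, and Vegfb 0.34 and 0.15. The direction of the vascular median and of Pecam1 therefore did not hold within both sets. The split also parts KO replicates 2 and 4 from KO replicates 1 and 3, as the pattern above does, so it is no separate test. Among the genes looked at singly, Vegfb, Kdr, Gpihbp1 and Egfl7 (0.58 and 0.17) were above 0 in each set. Cdh5 (0.43 and -0.022) was not, and how many of the 34 were above 0 in both was not counted. With a model term for Tnnt3 at 0, 0 vascular genes passed.

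Myoglobin (Mb), which stores oxygen in oxidative fibres, and Myh2, which encodes a fast oxidative myosin, were set beside the vascular genes library by library. Mb stood at 1624, 1695, 1686 and 1937 FPKM in the WT-labelled libraries and 1838, 4704, 3645 and 4010.3 FPKM in the KO-labelled ones, and Myh2 at 127, 96.6, 141 and 156 FPKM under the WT label and 125, 494, 447 and 391 FPKM under the KO label. Both fell into clusters, with KO replicates 2, 3 and 4 far above the other 5 libraries. The gap made up 59.4% of the whole log2 range for Mb and 56.2% for Myh2. Pooled correlations with Mb or Myh2 are therefore not given, although both were among the genes compared with Pecam1. Libraries in separate clusters cannot test the relation. Side by side, KO replicate 3 had Mb at 3645 FPKM but Pecam1 at 21.0, Cdh5 at 20.4, Tek at 7.37 and Nos3 at 3.80 FPKM, values that for Pecam1 and Tek were below every WT-labelled library. WT replicate 3 had Mb at 1686 FPKM and Pecam1 at 28.6, close to the 29.2 FPKM of KO replicate 4. Libraries high in myoglobin were thus not always high in endothelial RNA. Kdr, Gpihbp1 and Vegfb, 3 of the 34 tested members (8.82%), had their 3 highest values in the 3 libraries high in Mb, against 7.27% of all tested genes.

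**Figure D4:**
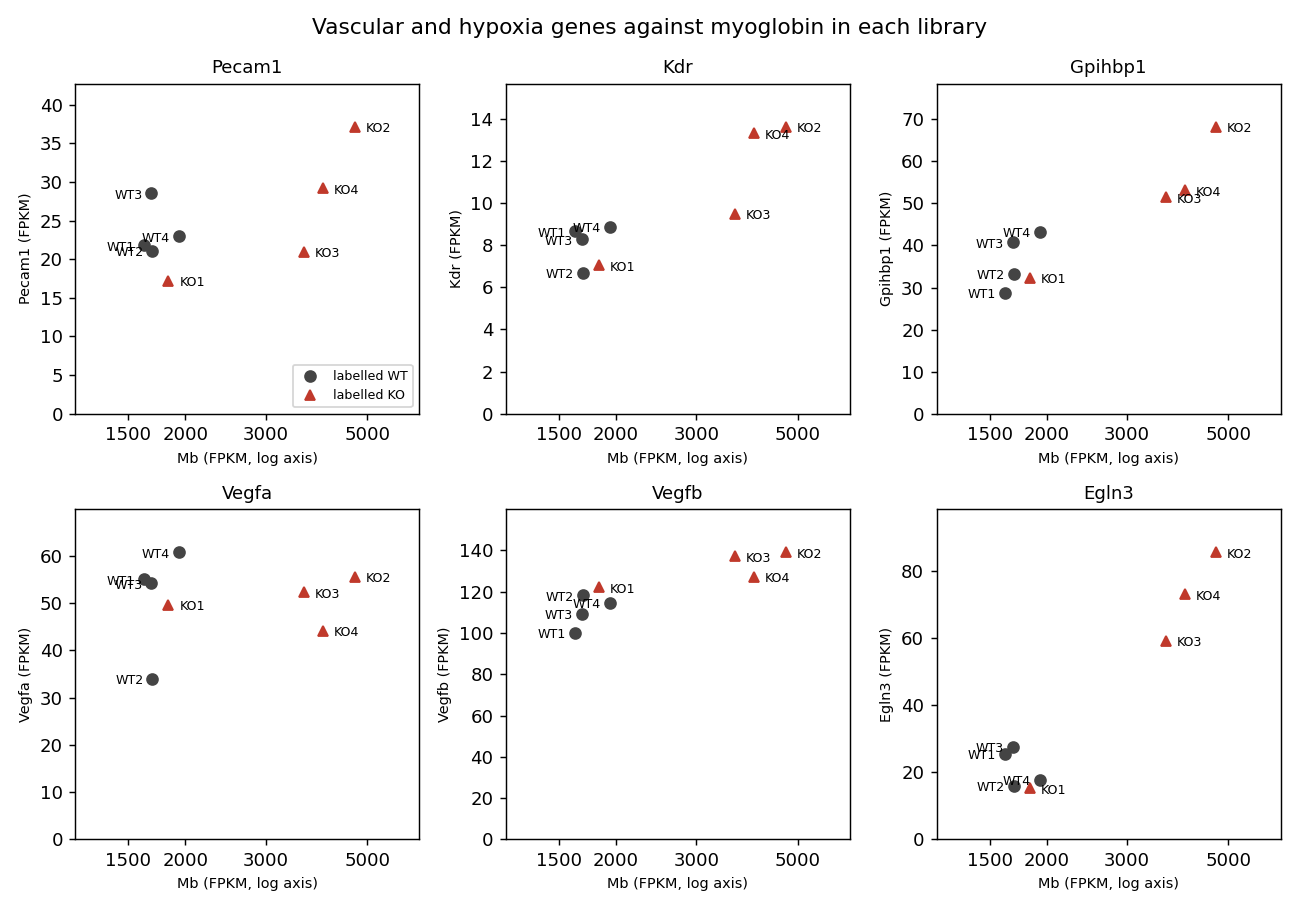
FPKM of 5 vascular genes and of Egln3 (y axes, from 0) against FPKM of Mb (x axes, log scale), 1 point per library, with circles for the WT label and triangles for the KO label. KO replicate 1 sits with the WT-labelled libraries in Mb; KO replicate 3 is high in Mb but at 21.0 FPKM in Pecam1.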

How the data were processed

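RNA from quadriceps muscle of 8 mice was sequenced (paired-end reads of 150 bases, stated at 50 M read pairs), per the labels' protocols. For every library the authors deposited gene-level FPKM with the locus of each entry, per the file headers. Per the submitters' processing notes, the tools were Bowtie2 2.2.6, TopHat2 2.1.1, Cufflinks 2.2.1 and FastQC, on mm10; the annotation, filters and strand setting are not given in the sources used here, so overlapping genes may share fragments. Entries without a gene name (2379 of 46036, 65.8% to 93.2% of summed FPKM) were left out, and the entry with the highest mean was used for repeated names (no member had one). Fragment counts are not in the tables used here. Reading the worth of 1 fragment from low values gave 22.4 to 53.7 M fragments, moving with the genes used, so depth is taken as unknown.

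Genes averaging 1 FPKM or more were compared as log2(FPKM + 0.5), which understates changes of low genes, with limma 3.58.1 in R 4.3.3 (labelled genotype as the sole term, trended moderated variances, two-sided, Benjamini-Hochberg over 11878 genes, threshold 0.05). Exact permutation tests of single genes used all 70 assignments of libraries, and those of correlations all 40320 pairings. The limma fit was tried on simulated data in which genes varied independently, so that trial does not cover genes that vary together, as many do here. Each library is a separate mouse, per the labels. Gene positions are from GENCODE M21. The members and lists were chosen with earlier results of these data known. Per-library values are given for anchor genes of each role, genes with groups that do not overlap and the 6 genes with the smallest p, of which Egfl7 and Tie1 were no anchors; Fli1, Emcn, Esam, Robo4, Eng and Sox7 are added for completeness; Egln3, Arnt, Hif1an, Ecscr, Acta2, Bnip3, Slc2a1, Nrp1, Hey1, Gja5 and Lep come from the lists and were picked after their values were seen. Alternatives were other pseudocounts, filters and scalings, robust or weighted fits, summed repeated names, the replicate number as a block, each library left out in turn, and, added after the data were seen, a term for Tnnt3 at 0 and other forms of the correlation with Pecam1.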

Additional observations from a re-analysis of the deposited data

Results flagged for a closer look

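Of 70 sets of 4 libraries (35 genes, 2 labels), 2 held a library whose gap to its nearest neighbour took up more of the whole range than Dixon's 95% limit for 4 samples, where chance gives about 1 in 20. Sox7 in KO replicate 2 was at 6.25 FPKM, beside 3.0, 2.77 and 3.10 FPKM in the other KO-labelled libraries. Hif1a in WT replicate 1 was at 10.1 FPKM, beside 8.35, 8.60 and 8.38 FPKM in the other WT-labelled ones.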

How the results depend on the processing

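No vascular gene passed the threshold in limma under any alternative run, whether planned or added. Over all tested genes 6 passed, and the number was 119 after rescaling to TPM, 0 with the replicate block and 4 to 125 with 1 library left out, 125 being without KO replicate 1; the cause was not tested. The replicate numbers of the labels did not pair the libraries (correlations of same-numbered deviations -0.010, -0.077, -0.081 and 0.0093), and with the replicate block the smallest adjusted p among vascular genes was 0.546. With 1 library left out the vascular median ran from 0.011 (without KO replicate 2) to 0.25 (without KO replicate 1). After rescaling to TPM the vascular median was -0.072, beside -0.18 for all tested genes, so that scaling lowered fold changes in general. Log2 fold changes that turned sign after rescaling to TPM were Pecam1 -0.12, Cdh5 -0.0066, Vwf -0.011, Emcn -0.10, Esam -0.063, Ets1 -0.080, Fli1 -0.054, Flt1 -0.013, Vegfa -0.20, Angpt1 -0.030, Epas1 -0.086, Nos3 -0.15, Dll4 -0.10, Acvrl1 -0.061 and Cspg4 -0.14. Further turns were Vegfa -0.031 with quantile normalization, Vegfa -0.013 with median scaling, and Erg 0.017 and Vegfa -0.0011 with array weights. With 1 library left out at a time, the log2 fold changes that turned sign ran as follows: Cldn5 -0.18 to 0.093, Hif1a -0.082 to 0.039, Nos3 -0.16 to 0.19, Vegfa -0.17 to 0.11, Cspg4 -0.10 to 0.11, Robo4 -0.14 to 0.071, Erg -0.13 to 0.13, Dll4 -0.070 to 0.20, Tek -0.12 to 0.075, Pdgfrb -0.14 to 0.088, Pecam1 -0.094 to 0.27, Sox7 -0.054 to 0.39, Aplnr -0.30 to 0.55 and Emcn -0.020 to 0.27. None of these passed the threshold. The number of vascular genes with r of at least 0.8 to Pecam1 was 26 of 33 after rescaling to TPM (18.5% of the other genes), 11 with median scaling (3.12%) and 12 with Spearman's rho (5.47%). The median r of all other tested genes was 0.70 after rescaling to TPM and 0.0059 with median scaling, so TPM raised r for genes in general. Precision is limited by 4 libraries per label, with depth unknown.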

Other observations

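Ratios of FPKM within a library do not depend on its scaling. The ratio of Vegfa to Vegfb was 0.551, 0.288, 0.496 and 0.530 in the WT-labelled libraries and 0.406, 0.400, 0.381 and 0.348 in the KO-labelled ones. That of Gpihbp1 to Pecam1 was 1.32, 1.58, 1.43 and 1.88 in the WT-labelled libraries and 1.88, 1.84, 2.45 and 1.82 in the KO-labelled ones, with WT replicate 4 inside the range of the KO-labelled libraries. That of Plvap to Pecam1 was 0.643, 0.746, 0.743 and 0.711 in the WT-labelled libraries and 0.719, 0.442, 0.573 and 0.608 in the KO-labelled ones. No test was run on these ratios, which were chosen after the values were seen.

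Vessel subtypes were measured by short lists, with 0 genes past the threshold in each. Of 6 arterial genes 5 were tested, 4 above and 1 below 0 (median 0.26), among them the connexin gene Gja5 at 1.97 ± 0.249 against 2.48 ± 0.494 FPKM. Of 5 venous genes 4 were tested, 1 above and 3 below 0 (median -0.074), and of 5 lymphatic genes 4, 2 above and 2 below (median -0.073). The adipocyte list had 1 of 5 above 0 (median -0.51), with Lep, the gene of leptin, at 2.29, 4.40, 3.88 and 2.88 FPKM in the WT-labelled libraries and 2.79, 0.577, 0.324 and 0.353 FPKM in the KO-labelled ones (log2 fold change -1.59, limma adjusted p = 0.347).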
